A study of Mus musculus with 8 samples.

Results

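Messenger RNA levels of 9 genes of the epidermal growth factor (EGF) system were followed in mouse uterus just before embryo attachment. They were the ligand genes Hbegf, Tgfa, Ereg, Btc and Nrg1, the ErbB receptor genes Egfr, Erbb2 and Erbb3, and Errfi1, which encodes an inhibitor of the receptors. The members were chosen by gene symbol, and each was represented by the probe set with exactly that symbol that had the highest mean over all 8 arrays, out of 19938 genes named in this way on the array. All 9 had such a probe set. The study profiled uteri of mice on day 3 at 22 h, the night of mating being day 0. In the pregnant group (n = 4) the females had been mated with stud males, had no blue dye reaction at the time of collection, which shows that attachment had not begun, and yielded blastocysts on flushing. In the pseudopregnant group (n = 4) the males were vasectomised, so that the uterus passed through the hormonal changes of early pregnancy without embryos. The males differed between the groups along with the embryos, and their effects cannot be told apart. The dye reaction and flushing are described here for the pregnant group only. If the pseudopregnant uteri were not handled in this way, an effect of handling cannot be told apart either. Every array carried total RNA labelled as a separate biological replicate. The p-values set the group difference against the spread between these replicates, which limma moderates with the spread of all probe sets in the fit. The design text refers to C57BL/6, an inbred strain, and no engineered allele or drug treatment is named for either group.

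EGF family ligands are made as membrane proteins, and proteases of the ADAM family cut them free. The ligands bind ErbB receptors on the same or a neighbouring cell; the receptors pair, phosphorylate each other and signal through MAP kinases and through PI3 kinase and AKT. In the mouse uterus HB-EGF, the product of Hbegf, is known as an early signal between blastocyst and luminal epithelium at the future site of attachment, and the protein made by Errfi1, also called MIG-6, is known as a progesterone-dependent brake on ErbB and estrogen signalling.

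Of the 9 genes, 6 entered the main test, and none of these differed between pregnant and pseudopregnant uterus after adjustment for the number of tests. Values are log2 of the deposited intensities, and the test took in a gene if 4 or more of the 8 arrays measured it higher than the 40th percentile of all probe sets on that array. By this rule Hbegf, Tgfa, Egfr, Erbb2, Erbb3 and Errfi1 were tested, while Ereg, Btc and Nrg1 lay below that line on every array. Of the 6 tested, 0 passed limma at an adjusted p under 0.05, and 1, Egfr, had an unadjusted p under 0.05. None was called higher or lower, where 1.41% of all tested probe sets were called higher and 0.412% lower. Over all 13038 genes tested, 1.72% passed at the adjusted threshold and 22.8% had an unadjusted p under 0.05, so a single gene of 6 is near the background. The groups overlapped for all 6, against 14.5% of all tested genes whose groups did not overlap. The median log2 difference of the 6 was 0.096, and that of all tested genes was 0.00138.

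**Figure D1:**
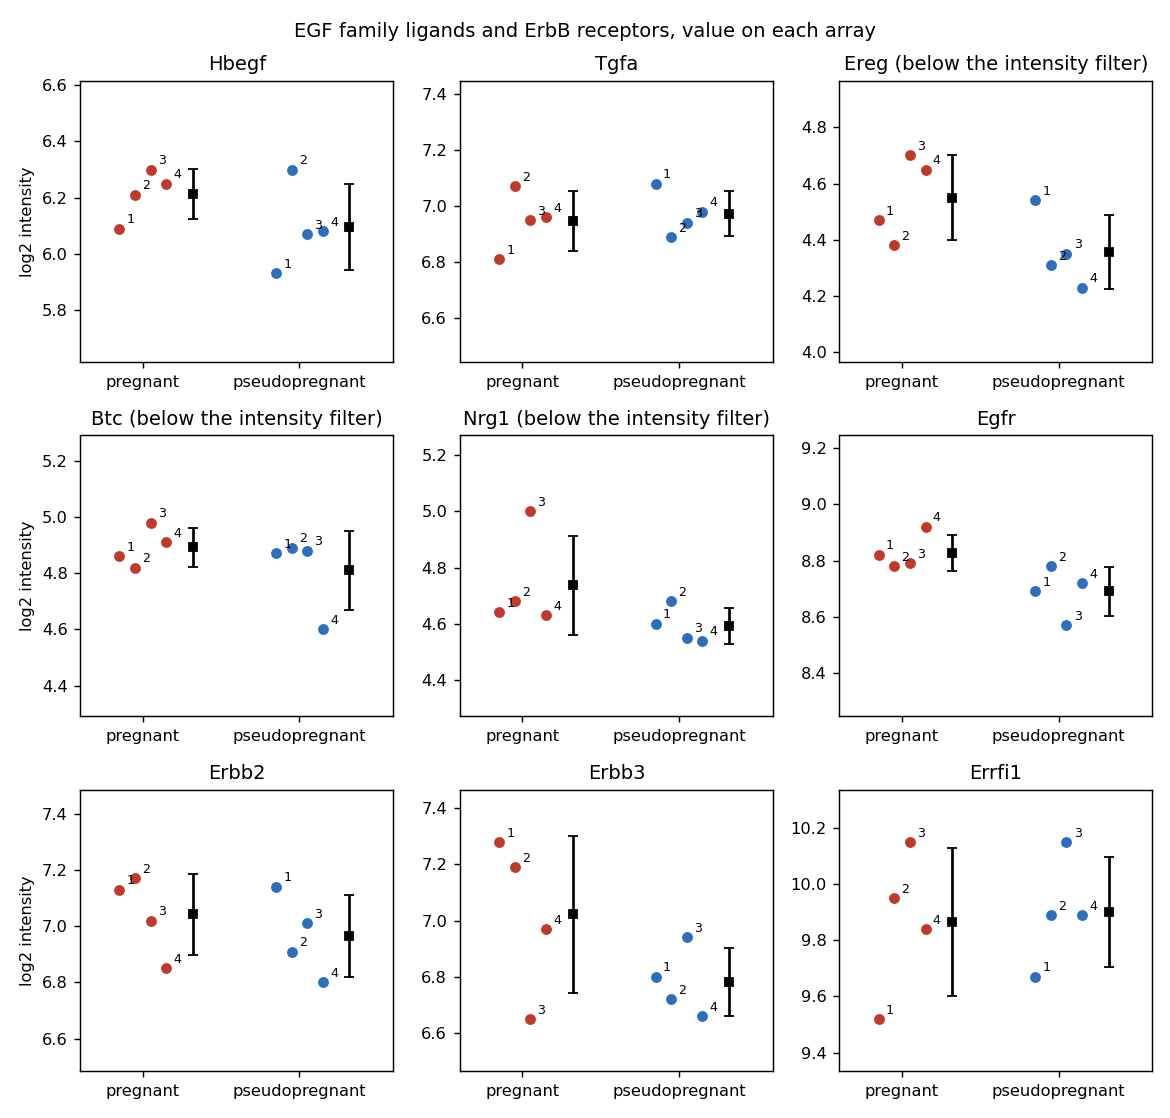
Log2 intensity (vertical axes, each spanning 1 log2 unit) of the 9 genes on each array of the pregnant (red) and pseudopregnant (blue) groups, with the replicate number beside each point and the mean ± SD of each group as a black square (n = 4 each). In every panel the groups overlap, and Erbb3 and Errfi1 spread most widely, by 0.63 over the 8 arrays.

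Hbegf was measured at log2 intensities of 6.09, 6.21, 6.30 and 6.25 on pregnant arrays 1 to 4 and at 5.93, 6.30, 6.07 and 6.08 on pseudopregnant arrays 1 to 4. The pseudopregnant replicate 2 array was as high as the highest pregnant array, and the other pseudopregnant arrays lay below all pregnant arrays. The means were 6.21 ± 0.0895 and 6.10 ± 0.153 (SD, n = 4 each), a difference of 0.12 ± 0.0812 (SE) with a limma adjusted p of 0.413. The difference was 0.0599 without pseudopregnant replicate 1 and 0.183 without pseudopregnant replicate 2. The 95% interval of the fold change ran from 0.955 to 1.23. A larger change in the small part of the epithelium around each blastocyst was not measured here, since RNA came from uterine tissue as a whole and fewer cells of a type cannot be told apart from less RNA per cell.

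TGF-alpha, encoded by Tgfa, is a second ligand of EGFR. Its log2 intensities were 6.81, 7.07, 6.95 and 6.96 on the pregnant arrays and 7.08, 6.89, 6.94 and 6.98 on the pseudopregnant arrays. The lowest value was that of pregnant replicate 1 and the highest that of pseudopregnant replicate 1, with the other arrays of both groups between them. The difference was -0.025 ± 0.0672 (SE, limma adjusted p = 0.840), with a fold change between 0.886 and 1.09.

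Epiregulin (Ereg), betacellulin (Btc) and neuregulin 1 (Nrg1), ligands of EGFR and ERBB4 in the case of the first pair and of ERBB3 and ERBB4 in the case of the last, were below the intensity filter. RMA compresses differences this near the background, so their sizes are not exact, and the p-values given for them come from a fit without the filter. Ereg lay at 4.47, 4.38, 4.70 and 4.65 on the pregnant and 4.54, 4.31, 4.35 and 4.23 on the pseudopregnant arrays, where the 40th percentile of the arrays lay between 5.23 and 5.32. Pregnant replicates 3 and 4 were above every pseudopregnant array and pregnant replicates 1 and 2 were not. The difference of Ereg was 0.20 ± 0.0912 (SE, limma adjusted p = 0.297). Btc had values of 4.82 to 4.98 in the pregnant group and, on pseudopregnant arrays 1 to 4, of 4.87, 4.89, 4.88 and 4.60. Pseudopregnant replicate 4 was the lowest of the 8 for Btc, and the difference was 0.085 ± 0.0780 (SE, limma adjusted p = 0.592). Nrg1 had values of 4.64, 4.68, 5.0 and 4.63 against 4.60, 4.68, 4.55 and 4.54. Pregnant replicate 3 was the highest of the 8 for Nrg1 and pregnant replicate 2 was level with the highest pseudopregnant array, and the difference was 0.15 ± 0.0866 (SE, limma adjusted p = 0.403).

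Egfr, the receptor of HB-EGF and TGF-alpha, was measured at 8.82, 8.78, 8.79 and 8.92 on the pregnant arrays and at 8.69, 8.78, 8.57 and 8.72 on the pseudopregnant arrays. The values of 3 of the 4 pregnant arrays lay above all pseudopregnant arrays, and pseudopregnant replicate 2 was level with the lowest of the pregnant group. The means were 8.83 ± 0.0642 and 8.69 ± 0.0898 (SD, n = 4 each). The difference of 0.14 ± 0.0608 (SE) had an unadjusted p of 0.0458 and a limma adjusted p of 0.202, and the 95% interval ran from 0.0032 to 0.27 on the log2 scale, or up to 1.21-fold. Its spread within groups was small, with 29.8% of tested genes varying less.

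Erbb2, the receptor without a ligand of its own that pairs with the others, had values of 7.13, 7.17, 7.02 and 6.85 in the pregnant group and 7.14, 6.91, 7.01 and 6.80 in the pseudopregnant group. The ranges of the groups nearly coincided, and the difference was 0.078 ± 0.0899 (SE, limma adjusted p = 0.625). Single arrays moved this value, between 0.0218 without pseudopregnant replicate 4 and 0.141 without pregnant replicate 4; it was 0.0472 without pregnant replicate 1, 0.035 without pregnant replicate 2 and 0.134 without pseudopregnant replicate 1. Erbb3, whose kinase is weak and which signals through its partners, had the largest difference of the tested members. Its log2 intensities were 7.28, 7.19, 6.65 and 6.97 on the pregnant arrays and 6.80, 6.72, 6.94 and 6.66 on the pseudopregnant arrays. Here 3 pregnant arrays were above all pseudopregnant arrays, but pregnant replicate 3 was the lowest of all 8. The means were 7.02 ± 0.281 and 6.78 ± 0.121 (SD, n = 4 each), and the difference of 0.24 ± 0.126 (SE) had a limma adjusted p of 0.273, with a fold change between 0.973 and 1.44. Without pregnant replicate 3 the difference was 0.367 and the adjusted p 0.0888, the lowest that any tested member reached under any alternative. Without pregnant replicate 1, the highest array, the difference was 0.157 and the limma adjusted p 0.472. The plot of differences with their intervals shows 7 of the 9 genes above 0 and 2, Tgfa and Errfi1, below it. Of the 6 tested genes 4 were above 0, where 50.5% of all tested genes were.

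**Figure D2:**
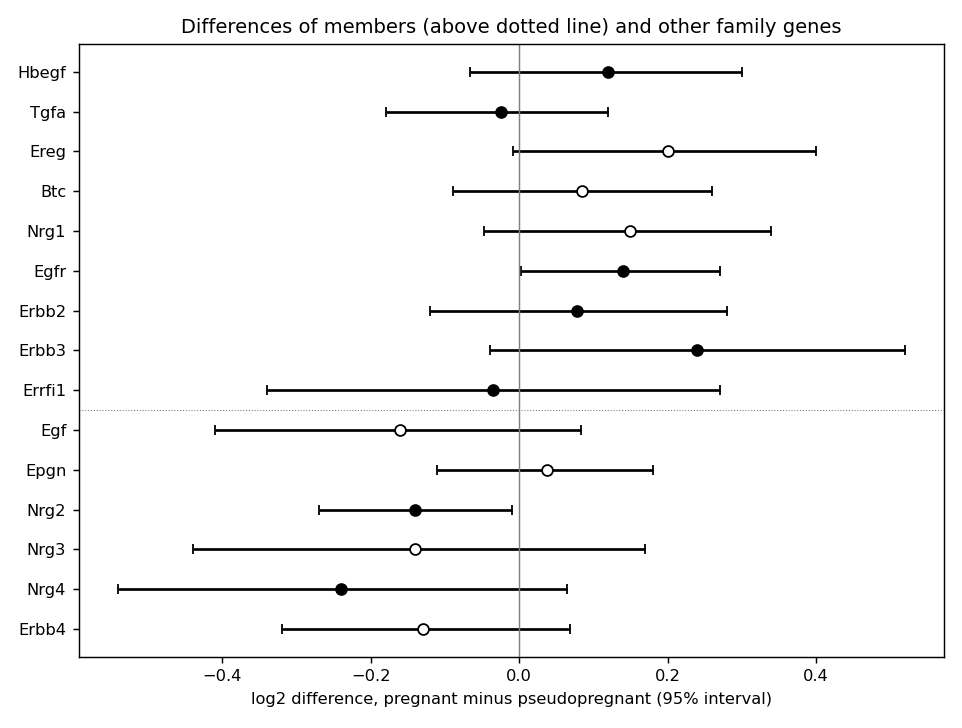
Log2 difference, pregnant minus pseudopregnant (horizontal axis), with its 95% interval from limma, for the 9 genes and, under the dotted line, 6 other genes of the family (n = 4 arrays per group). Filled points passed the intensity filter, and open points, which did not, come from the fit without the filter. The intervals of Egfr (0.0032 to 0.27) and Nrg2 (-0.27 to -0.01) are the only ones that leave out 0, and neither gene passed after adjustment.

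Errfi1, the intracellular inhibitor that binds the ErbB kinase domain, differed by -0.035 ± 0.135 (SE, limma adjusted p = 0.893). It was measured at 9.52, 9.95, 10.15 and 9.84 on the pregnant arrays and at 9.67, 9.89, 10.15 and 9.89 on the pseudopregnant arrays. Thus the lowest array of each group was replicate 1 and the highest replicate 3, and the groups covered almost the same range. Errfi1 varied within groups more than 95.2% of the tested genes, with an SD of 0.234, and the interval of its fold change, 0.792 to 1.20, was wide for that reason. The range within the pregnant group, 0.63, was as wide as that over all 8 arrays.

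Errfi1 is itself induced by the signalling it restrains, as are the immediate early transcription factors and phosphatases of the early response, so the arrays were set side by side for these genes. Replicate 3 was the highest array of both groups for 11 of 18 tested early response genes (61.1%), as it was for Errfi1, against 487 of 13038 tested genes (3.74%). This count was made after the values had been seen and is a description only. Genes of this list can vary together, so the 11 are not separate observations and the shares are not a test. Of the 11, Egr1 and Fosb are named here after their values were seen. The early response genes without this order were Junb, Ier2, Ier3, Myc, Etv5, Phlda1 and Klf6. Egr1, a zinc finger factor induced by MAP kinase, had 8.40 on pregnant replicate 3 against 7.57 to 8.25 on the other pregnant arrays. In the pseudopregnant group Egr1 had 9.03 on replicate 3 against 7.68 to 8.68. For Fosb, a subunit of the AP-1 factor, the corresponding values were 7.16 against 5.82 to 5.95 and 7.05 against 5.90 to 6.66. The MAP kinase phosphatase Dusp1, on the list of receptor brakes and feedback genes, followed with 8.59 against 7.90 to 7.97 and 8.92 against 7.72 to 8.29. Dusp1 was the only one of 20 tested genes of that list with replicate 3 highest in both groups (5%), a share near that of all genes, and is named for that reason after its values were seen. The labels do not say that a replicate number marks a shared day or litter. Over all tested probe sets, the deviations of the replicate 3 arrays from their group means had a correlation of -0.1. Whether these arrays have anything in common was not tested. Replicate 1 was the lowest pseudopregnant array for Errfi1, Dusp1 and Egr1, but not for Fos (replicate 2, 5.58) or Fosb (replicate 4, 5.90). In the pregnant group the lowest array was replicate 1 for Errfi1 (9.52) and replicate 2 for Dusp1 (7.90) and Egr1 (7.57).

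**Figure D3:**
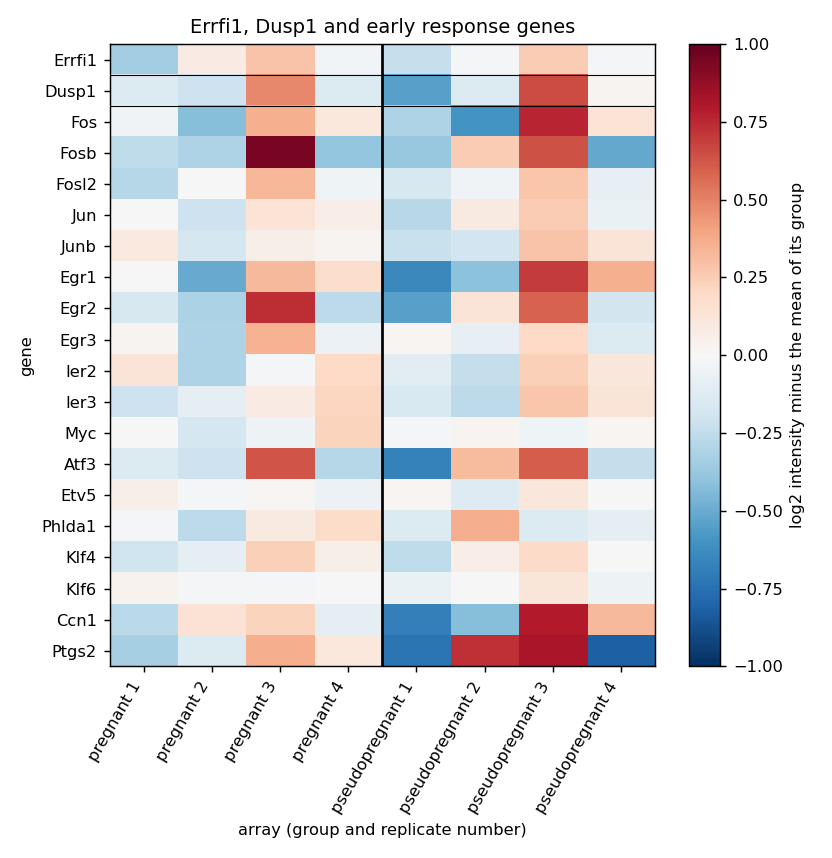
Log2 intensity minus the mean of its group (colour, red above and blue below the mean) of Errfi1, Dusp1 and 18 early response genes (rows) on the 8 arrays (columns, with a black line between the groups). The replicate 3 columns of both groups are red for Errfi1, Dusp1 and most early response genes.

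The promoter windows of Errfi1 and Dusp1 are shown, a choice made after the values had been seen. Of the tested members and feedback genes, only these had replicate 3 highest in both groups. Over the other pregnant arrays the order of Errfi1 and Dusp1 differed. The sequences are the 250 bases before a transcription start in RefSeq's table for GRCm38.p6, at chr4:150854820-150855069 (plus strand) for Errfi1 and chr17:26508473-26508722 (minus strand) for Dusp1. Capitals mark the cyclic AMP response element palindrome TGACGTCA, the TATA box TATAAA and the GC box GGGCGG, each searched on both strands.

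Errfi1: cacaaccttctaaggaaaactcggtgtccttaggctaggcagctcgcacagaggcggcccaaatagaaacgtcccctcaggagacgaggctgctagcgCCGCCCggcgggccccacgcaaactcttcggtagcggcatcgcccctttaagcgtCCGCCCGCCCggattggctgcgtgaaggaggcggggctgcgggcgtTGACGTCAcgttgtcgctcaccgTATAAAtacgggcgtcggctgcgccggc

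Dusp1: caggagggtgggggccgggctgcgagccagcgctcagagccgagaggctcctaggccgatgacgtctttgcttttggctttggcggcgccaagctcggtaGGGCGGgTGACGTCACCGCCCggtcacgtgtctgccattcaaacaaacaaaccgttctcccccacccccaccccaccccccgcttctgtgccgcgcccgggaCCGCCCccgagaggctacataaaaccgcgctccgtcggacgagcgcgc

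The palindrome lay 51 bases before the Errfi1 start, followed by a TATA box at 28 bases, and 3 GC boxes lay upstream, of which a pair overlap each other. In Dusp1 the palindrome lay 143 bases before the start between GC boxes, the later of which adjoins it. The palindrome occurs in 1.55% of all 32851 windows of this length, the TATA box in 12.4% and the GC box in 32.7%. A second listed start of Errfi1 held none of these motifs in its window. Among the members, the table gave windows for Errfi1, Btc, Tgfa, Egfr and Erbb2. The GC box was found in those of Tgfa and Egfr as well, and those of Btc and Erbb2 held none of the 3 motifs. Of 14 early response genes with a window, 1, the ligand gene Areg, held the palindrome. These matches describe the letters in the windows and nothing about binding.

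Other genes of the family were measured too, except Areg, which was not analysed here. Egf, Epgn, Nrg3 and Erbb4 lay below the 40th percentile on every array, with differences between -0.16 for Egf and 0.037 for Epgn in the fit without the filter and limma adjusted p of 0.461 or above. Neuregulin 2 (Nrg2) had values of 5.82, 5.67, 5.85 and 5.89 in the pregnant and 5.93, 5.92, 5.99 and 5.94 in the pseudopregnant group. All pregnant arrays thus lay below all pseudopregnant arrays, as they did for 5.18% of all tested genes. The difference was -0.14 ± 0.0578 (SE), and it did not pass (limma adjusted p = 0.182). Neuregulin 4 (Nrg4) was 4.79 on pregnant replicate 2 and 5.21 to 5.52 on the other pregnant arrays, against 5.41 to 5.56 in the pseudopregnant group. Its difference of -0.24 ± 0.136 (SE, limma adjusted p = 0.312) became -0.0886 without pregnant replicate 2.

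Downstream and upstream of the receptors, 5 further lists held 86 tested genes, and 0 of them passed limma at an adjusted p under 0.05, where 1.72% of all tested genes did. At an unadjusted p under 0.05 limma had 13 higher and 7 lower, a share near the 22.8% of all tested genes. The median of the 12 tested genes of ligand shedding was 0.11, and 8 of them were above 0. The inactive rhomboid protease Rhbdf2, which carries the sheddase ADAM17 to the cell surface, differed by 0.20 ± 0.0747 (SE, limma adjusted p = 0.154), and the metalloprotease Adam8 by 0.18 ± 0.0725 (0.172), or by 0.117 without pregnant replicate 4. Their pregnant values were 6.42 to 6.70 and 6.18 to 6.46, and their pseudopregnant values 6.26 to 6.45 and 6.03 to 6.19, so both overlapped.

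Of 20 tested adaptors and kinases, 12 had differences above 0 and the median was 0.022. Akt1, the kinase downstream of PI3 kinase, lay between 9.21 and 9.27 in the pregnant and between 9.01 and 9.15 in the pseudopregnant group, with no overlap, and differed by 0.17 ± 0.0509 (SE, limma adjusted p = 0.0946). It was the only 1 of the 20 without overlap, and 9.32% of all tested genes had all pregnant arrays above all pseudopregnant arrays. The regulatory PI3 kinase subunit Pik3r2 differed by -0.15 ± 0.0540 (SE, limma adjusted p = 0.142), with an overlap at 6.85.

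Among 20 tested receptor brakes and feedback genes 14 had differences above 0, the median was 0.043, and for 4 (Ptprj, Lrig2, Socs4 and Rasa1) all pregnant arrays were above all pseudopregnant arrays. That is 4 of 20, where 9.32% of all tested genes had such an order. Socs4 (7.46 to 7.66 against 7.14 to 7.43, difference 0.24) and Rasa1 (7.84 to 7.94 against 7.68 to 7.82, difference 0.16) are named here after their values were seen, and neither passed (limma adjusted p = 0.102 and 0.121). The receptor phosphatase Ptprj had 8.05, 8.12, 8.17 and 8.06 on the pregnant and 7.78, 7.96, 7.81 and 7.74 on the pseudopregnant arrays. Its difference of 0.27 ± 0.0610 (SE) missed the threshold with a limma adjusted p of 0.0529, and it passed with the stricter filter (0.0421), with array weights (0.0481) and with a trended, robust prior (0.0388). Over the 18 alternatives its adjusted p ran from 0.0388 to 0.166. The transmembrane protein Lrig2, a relative of the ErbB inhibitor LRIG1, lay between 7.24 and 7.29 in the pregnant and between 6.92 and 7.16 in the pseudopregnant group, a difference of 0.20 ± 0.0599 (SE, limma adjusted p = 0.0976). Of 16 tested genes of receptor traffic and membrane partners, 11 were above 0 with a median of 0.048. The adaptor Sh3kbp1, which works with CBL in taking up receptors, differed by 0.19 ± 0.0491 (SE, limma adjusted p = 0.0647), and the endocytic adaptor Eps15, first found as a substrate of the EGFR kinase, by 0.21 ± 0.0577 (0.0714). For both genes all pregnant arrays were above all pseudopregnant arrays, an order found in 9.32% of all tested genes. The mucin Muc1 (-0.34, limma adjusted p = 0.123) and the tetraspanin Cd82 (-0.18, 0.101), named after their values were seen, had the opposite order, found in 5.18% of all tested genes.

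In the early response list 14 of 18 differences were below 0 with a median of -0.15, whereas 50.5% of all tested genes were above 0. Replicate 3 was the highest array of both groups for 11 of these 18 genes, so their signs are not separate observations. Their mean ranged from 6.67 to 7.13 on the pregnant and from 6.68 to 7.34 on the pseudopregnant arrays, and the groups overlapped. No gene of this list passed, and 0 had an unadjusted p under 0.05 in limma. Ier3, an apoptosis regulator induced by growth factors, had values of 6.27 to 6.69 in the pregnant and 6.50 to 7.04 in the pseudopregnant group, and differed by -0.28 ± 0.128 (SE, limma adjusted p = 0.215), or by -0.187 without pseudopregnant replicate 3. Phlda1, a nuclear and cytoplasmic protein also induced by growth factors, differed by -0.24 ± 0.127 (SE, limma adjusted p = 0.289), with pseudopregnant replicate 2 highest at 6.87. The Phlda1 difference was -0.115 without that array and -0.148 without pregnant replicate 2.

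**Figure D4:**
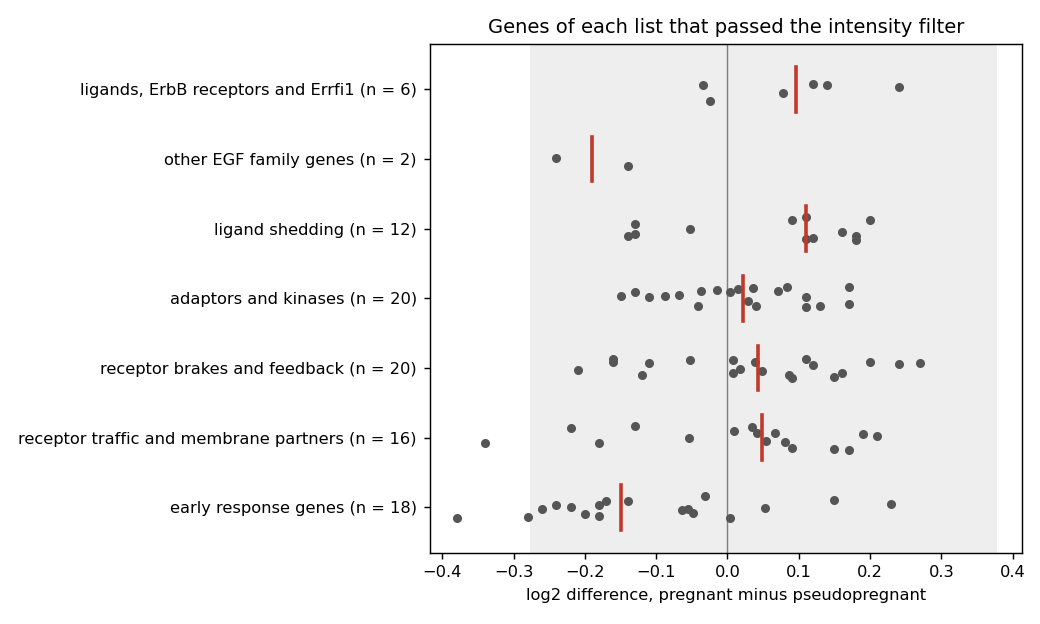
Log2 difference, pregnant minus pseudopregnant (horizontal axis), of every gene of 7 lists that passed the intensity filter (points) with the median of each list (red line). The grey band leaves out the lowest and the highest 2.5% of all 13038 tested genes and runs from -0.276 to 0.376, and nearly all points fall inside it.

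Median intensities of the arrays lay between 55.2 and 56.3 on the linear scale, and 319 of 17491 tested probe sets (1.82%) passed between the groups, 247 higher and 72 lower in the pregnant group. The largest axis of variation held 46.1% of the variance and separated the groups. Pregnant arrays lay from -26.7 to -4.9 on it and pseudopregnant arrays from 6.76 to 20.3. Farthest out were pregnant replicate 2 (-26.7) and pseudopregnant replicate 1 (20.3). Markers fixed for the epithelium (12 of 12), stroma (10 of 10), smooth muscle (8 of 8) and endothelium (6 of 6) were all above the filter, as a uterus should show, whereas 0 of 4 measured ovary and oviduct markers and 2 of 10 blastocyst markers were. Of these 2, Eomes is on the natural killer cell list as well. The mean log2 level of the 12 epithelial markers ranged from 7.12 to 7.5 on the pregnant and from 7.33 to 7.73 on the pseudopregnant arrays, with 9 of 12 differences below 0, and 0 passed. The 8 macrophage markers ranged from 7.14 to 7.38 and from 6.88 to 6.94, with 5 passing as higher, and the 5 tested natural killer cell markers from 6.27 to 7.09 and from 5.44 to 5.99, with 4 passing. The 11 tested cell cycle genes ranged from 7.76 to 8.28 and from 7.42 to 7.72, all with differences above 0 and 1, Pcna, passing (limma adjusted p = 0.0282). The 6 endothelial markers ranged from 8.35 to 8.58 and from 8.58 to 8.73, all with differences below 0, and 0 passed. The part of cell composition in the differences of the EGF system genes was not tested. Without the 2 arrays farthest out, an alternative chosen after seeing the data, 0 of the 6 tested members passed as well. Only 48 probe sets passed in that fit, against 319 with all arrays, so it says little about the members.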

How the data were processed

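Gene expression arrays of 8 mouse uteri were used, grouped by the sample titles. The intensity values deposited by the authors are on a linear scale, with a maximum of 8113, and were made with RMA, per the submitters' processing notes. The RMA software, its settings and the annotation build were not given in the sources used here. The log2 of each intensity was taken. Of 35556 probe sets, the 6617 with identifiers below the first one listed with a gene were left out as array controls. The other 28939 included 21789 with 1 gene symbol, 1621 with several and 5529 with none in the platform's gene table, which can be old. A probe set that lists Erbb2 with another gene was not used. Probe sets were kept where at least 4 of 8 arrays exceeded the 40th percentile of their array (17491, for 13038 genes). The main test was limma 3.58.1 (lmFit, eBayes; R 4.3.3), two-sided, with a group term only and Benjamini-Hochberg adjustment over all kept probe sets at 0.05. The code was tested on simulated data. Figures used matplotlib 3.10.9 in Python 3.11.15.

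The number of arrays limits the precision. The members and gene lists were chosen with earlier results of these data known. The genes named by rule were all members and other family genes. Of each further list they were those that passed (up to 4) or else the 2 with the smallest p. Other genes, such as Egr1, Fos, Fosb, Dusp1, Socs4, Rasa1, Muc1 and Cd82, were named after their values were seen. Genes of similar pattern were to be named for members spanning at least 1 log2 unit over the arrays, and 0 of 9 did. The labels do not say that same-numbered arrays are pairs, so the main test did not pair them and the replicate block was an alternative. Same-numbered arrays of the groups did not vary together throughout (correlations of their deviations 0.24, 0.02, -0.1 and 0.04). Array names such as replicate 3 follow the titles. Other filters, normalizations, priors and left-out arrays were tried as alternatives. Some genes of the adaptor and kinase list are not reported here.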

Additional observations from a re-analysis of the deposited data

Results flagged for a closer look

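Within the groups of 4 arrays, 3 of 50 sets of values (25 genes in 2 groups) held an array far from the others, by a gap of 0.866 to 0.95 of the group's range. Chance alone gives about 1 in 20. Btc had 4.60 on the pseudopregnant replicate 4 array, against 4.87 to 4.89 on the other pseudopregnant arrays. For Nrg1 it was pregnant replicate 3, at 5.0 against 4.63 to 4.68. Both genes lay below the intensity filter. Phlda1 had 6.87 on pseudopregnant replicate 2, against 6.37 to 6.41.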

How the results depend on the processing

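No tested member passed under any of the 18 alternatives in which it could be tested (17 for Hbegf, which the stricter filter left out), and the count of members that passed stayed at 0 in either direction. Of the 9 counts 148 of 162 values, and of the 25 genes 320 of 327 values, kept their direction and their side of the threshold or range. For Ereg, Btc, Nrg1, Egf, Epgn, Nrg3 and Erbb4 the only alternative was the fit that gave the main value, so these values could not change and say nothing about stability. The count of all probe sets that passed was 54 without the filter, 710 with a trended and robust prior, 40 to 235 without single arrays and 48 without pregnant replicate 2 and pseudopregnant replicate 1 together. With the replicate number as a block (replicate block) it was 174. The count of brakes and feedback genes was 1 (Ptprj) with the stricter filter, array weights and the trended prior. The differences of Tgfa and Errfi1, near 0 with all arrays, changed sign when an array was left out: Tgfa became 0.0189 without pregnant replicate 1 and 0.0114 without pseudopregnant replicate 1, and Errfi1 became 0.0814 without pregnant replicate 1 and 0.0491 without pseudopregnant replicate 3. Without single arrays, Tgfa ranged from -0.0656 to 0.0189 and Errfi1 from -0.13 to 0.0814. The cause was not tested. Signal over background limits Ereg, Btc and Nrg1, which only the fit without the filter could test.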
